A study of Homo sapiens with 6 samples.

Results

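The genes described here are 36 genes of the integrated stress response and the unfolded protein response, chosen by symbol and followed in 6 RNA-seq libraries of MUTZ3, a human acute myelomonocytic leukaemia line that carries an inversion of chromosome 3 (inv(3)). They are 36 of the 27745 genes to which the deposited transcripts were assigned, and 33 of the 36 had enough reads to be tested among 14635 genes. Earlier results of these data were known when the 36 genes were chosen. The libraries fall into 3 groups of 2, all from cells collected 72 h after retroviral transduction and grown in αMEM with fetal calf serum and medium conditioned by the 5637 line. The PLDLS group carried p50MX-3xFLAG-3xNLS-4xPLDLS-Zeo, with 4 copies of a peptide that, per the labels, blocks the contact between EVI1 and the CTBP corepressors. The PLASS group carried p50MX-3xFLAG-3xNLS-4xPLASS-Zeo, with 4 copies of a related peptide that per the labels has no such effect. The empty vector (EV) group was not uniform, because EV replicate 1 carried p50MX-3xFLAG and EV replicate 2 carried p50MX-Zeo. Libraries are written below as PLDLS 1, PLDLS 2 and so on, where the number is the replicate number of the labels.

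The genes belong to a pair of linked pathways. In the integrated stress response, kinases that sense misfolded protein, amino acid shortage or other stress phosphorylate the initiation factor eIF2, which slows translation in general and favours translation of ATF4, a transcription factor that raises genes for amino acid synthesis, amino acid import, tRNA charging and feedback. In the unfolded protein response, PERK (gene EIF2AK3), IRE1 (gene ERN1) and ATF6 sense misfolded protein in the endoplasmic reticulum (ER). PERK acts through eIF2 and ATF4, IRE1 splices XBP1 mRNA, and the spliced XBP1 and cleaved ATF6 proteins raise ER chaperones and the genes of ER-associated degradation (ERAD).

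The libraries held 5582078 to 35800826 estimated reads, and in each group replicate 2 was the shallower library. Names of the deposited tables give each replicate its own experiment number, but no label says whether the cells were cultured apart. The p-values therefore reflect how far these libraries scatter, which can in part be technical. In bulk RNA, fewer cells of a type and less RNA per cell cannot be told apart. All 10 myeloid and MUTZ3 markers were above 1 CPM (read counts scaled to library size) in each library, with a summed level of 2388 to 3094 CPM. MECOM, the gene of EVI1, was among them at 342 to 605 CPM in the peptide libraries and at 129 and 88.2 CPM in EV 1 and 2. That gap moves with each comparison against EV, and its part in those results was not tested. Of 12 markers of T, B, erythroid, epithelial and stromal cells, MS4A1, HBB and HBA1 were at 0 in each library, PDGFRB and PECAM1 were above 1 CPM in each, and the summed level was 88.6 to 114 CPM. Transcripts shorter than 200 bases held 8.15% to 16.7% of the deposited TPM (transcript abundance scaled for length and library size), and in each group the share was lower in replicate 2, so TPM values below were rescaled without them.

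Levels of different genes are compared only in TPM, which is per length. In the EV libraries the most abundant members were the ER chaperone genes HSP90B1, with a mean of 1198 TPM, and HSPA5, with 846 TPM, followed by ATF4 with 655 TPM and the mitochondrial folate enzyme gene MTHFD2 with 413 TPM. The least abundant tested members were ERN1 with 6.33 TPM, SLC7A11 with 12.8 TPM and DDIT3 with 16.3 TPM. The other 3 members were at or near 0 and were not tested. CHAC1, a glutathione-degrading enzyme gene, was at 0.24 CPM in PLDLS 1 and at 0 to 0.111 CPM in the other libraries. PSAT1, a serine synthesis enzyme gene, and NUPR1, a stress-induced transcriptional regulator gene, did not exceed 0.0962 CPM in any library. For comparison, 3 reads correspond to 0.0839 to 0.538 CPM before scaling, depending on the library, and this covers counting error only.

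More members passed the test between replicate numbers than between constructs, as did more of all tested genes. Of all tested genes 2551 passed between replicates. With the replicate number as a block, 297 passed in PLDLS vs PLASS, 618 in PLDLS vs EV and 2 in PLASS vs EV. The replicate comparison also has more libraries on each side than a construct comparison. In replicate 2 against replicate 1, tested over all groups, 21 of the 33 tested members passed an adjusted p of 0.05 in edgeR, 11 higher and 10 lower, where 17.4% of all tested genes passed, 7.83% higher and 9.6% lower. The genes that rose included ATF4, DDIT4, SESN2, TRIB3, PPP1R15A and 3 amino acid transporter genes, and those that fell included 7 ER chaperone genes and both tRNA synthetase members. The median log2 difference was 0.15 over the tested members and -0.02 over all tested genes. Taken group by group, 12 members were higher in replicate 2 in all 3 groups, 12 were lower in all 3 and 9 differed in sign. The share of all tested genes with a common sign was not counted. Over 9322 genes the replicate differences correlated between groups at 0.536 to 0.707. Common signs, here and below, are therefore not read as a trait of the members. The call count fell without either PLDLS library or either PLASS library, and was slightly higher without either EV library. When 1 library of a group is left out, its partner adds nothing to the replicate difference. For this comparison, leaving out replicate 1 or replicate 2 of a group is therefore nearly the same check, here and below. The share of all tested genes that passed in these fits is not given. A change particular to the members therefore cannot be told from a change over all tested genes. Read depth, the share of short transcripts and, within EV, the vector itself moved with the replicate number, and their part in the result was not tested.

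**Figure D1:**
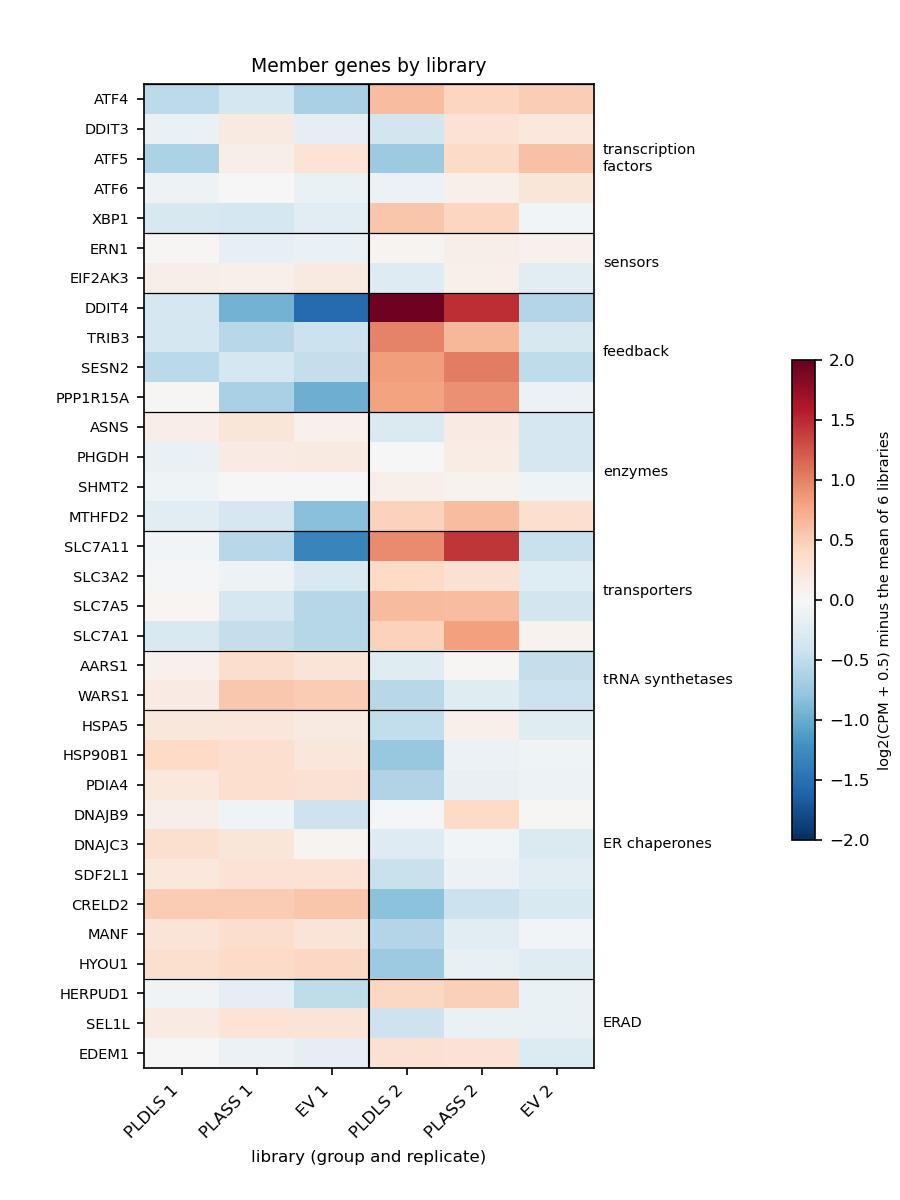
Heat map of log2(CPM + 0.5) minus the mean of the 6 libraries for the 33 tested members, in rows by role, with the replicate 1 libraries on the left and the replicate 2 libraries on the right of the black line. The feedback and transporter genes are mostly red in PLDLS 2 and PLASS 2, and the ER chaperone genes are mostly red in the replicate 1 libraries.

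Between constructs, no member passed in edgeR when the replicate number was ignored. In PLDLS vs PLASS, which sets the blocking peptide against its inactive relative, 0 of 33 members passed, with 1 at an unadjusted p under 0.05 and 0 calls by DESeq2 or limma-voom, and 0% of all tested genes passed. In PLDLS vs EV 0 members passed, with 3 at an unadjusted p under 0.05, 1 lower by DESeq2 and 0 by limma-voom, against 0.0137% of all tested genes. In PLASS vs EV 0 members passed, with 1 at an unadjusted p under 0.05 and 0 by DESeq2 or limma-voom, against 0% of all tested genes. Of all 14635 tested genes, 722, 1048 and 103 were at an unadjusted p under 0.05 in these 3 edgeR comparisons, in the same order. Without the low-count filter edgeR called 5 members in PLDLS vs EV, where 2.24% of the genes in that fit passed, and 2 in PLASS vs EV, where 0.162% passed.

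Libraries with the same replicate number deviated together, so the constructs were also compared with the replicate number as a block. In PLDLS vs PLASS this gave 1 member, ATF5, which was lower, where 2.03% of all tested genes passed, 1.52% higher and 0.512% lower. In PLDLS vs EV it gave 5 members, DDIT4, SLC7A11, PPP1R15A and SLC7A5 higher and ATF5 lower, where 4.22% of all tested genes passed, 3.23% higher and 0.998% lower. In PLASS vs EV it gave 0 members, with 10 at an unadjusted p under 0.05, 1 higher by DESeq2 and 0 by limma-voom, where 0.0137% of all tested genes passed. At an unadjusted p under 0.05 in edgeR there were 2, 10 and 10 members in these 3 comparisons, in the same order. Of all 14635 tested genes there were 1686, 2327 and 488. Both EV comparisons share the EV libraries. The median log2 difference of the members was -0.16 in PLDLS vs PLASS, 0.05 in PLDLS vs EV and 0.21 in PLASS vs EV. Over all tested genes it was -0.01, -0.02 and -0.00, in the same order. For fits with a library left out, the share of all tested genes that passed is given below only for the EV comparisons without EV 1. In the other such fits, a change in the member count cannot be told from a change over all tested genes. The count in PLDLS vs EV was 11 without EV 1, where 13.9% of all tested genes passed, 3 without EV 2, 2 without PLDLS 1 and 3 without PLDLS 2. In PLASS vs EV it was 8 without EV 1, where 3.33% of all tested genes passed, and 2 without PLASS 1. In PLDLS vs PLASS it was 0 without any 1 of the 4 peptide libraries and 2 without either EV library.

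**Figure D2:**
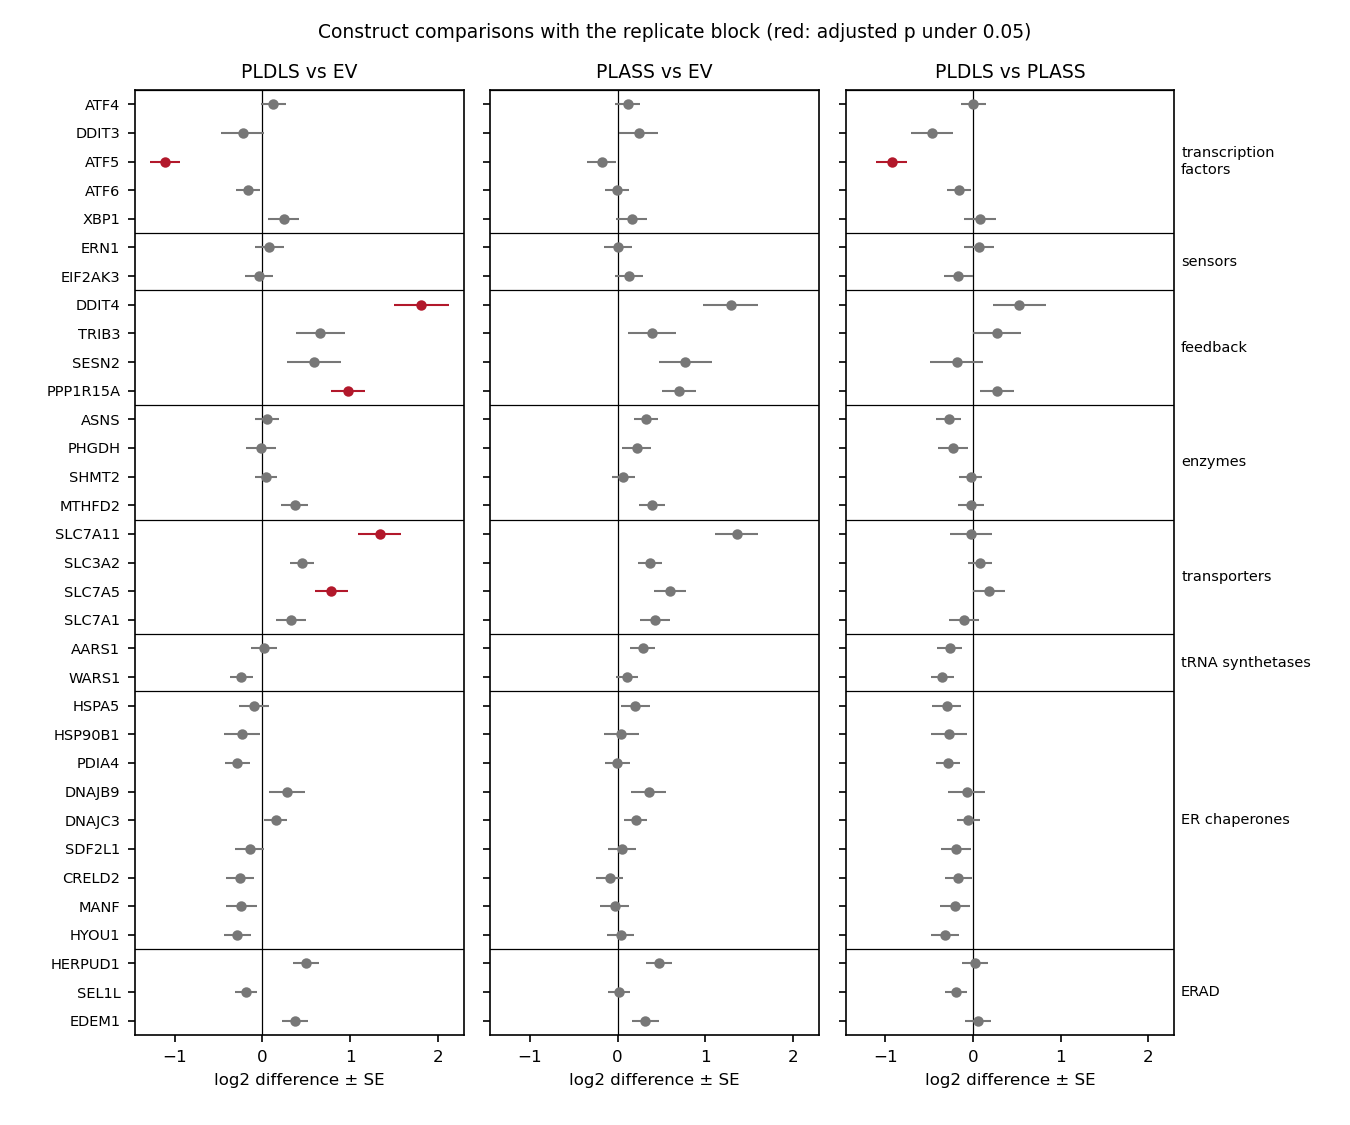
Log2 difference ± SE of the 33 tested members in the 3 construct comparisons with the replicate block, with genes past an adjusted p of 0.05 in red. DDIT4 at 1.81 and ATF5 at -1.11 are the highest and lowest members in PLDLS vs EV, and ATF5 at -0.92 is the 1 called member in PLDLS vs PLASS.

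Among the transcription factor genes of the pathway, ATF5 differed between constructs and ATF4 and XBP1 between replicates. ATF5 (GRCh38 chr19:49928906-49933935) encodes a factor related to ATF4 that is itself translated under eIF2 phosphorylation. It was at 17.4 CPM in PLDLS 1 and 16.3 in PLDLS 2, at 29.8 and 35.6 in PLASS 1 and 2, and at 33.0 and 41.4 in EV 1 and 2. Both PLDLS libraries were therefore below all 4 others, while PLASS and EV overlapped. With the block the log2 difference was -0.92 ± 0.17 from PLASS (SE, edgeR adjusted p = 0.0356) and -1.11 ± 0.17 from EV (adjusted p = 0.01). Within replicate 1 the differences were -0.76 from PLASS and -0.90 from EV, and within replicate 2 they were -1.10 and -1.31. The call against PLASS was lost without PLDLS 1 (adjusted p = 0.0795), PLDLS 2 (0.244), PLASS 1 (0.195) or PLASS 2 (0.163), and the call against EV without PLDLS 2 (0.0715). Without the block the adjusted p was 0.377 against PLASS and 0.16 against EV. ATF5 overlaps IL4I1 and NUP62, the latter at 122 to 201 CPM. If the libraries were unstranded, the reads of overlapping genes cannot be separated with certainty.

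ATF4, whose protein is the central factor of the integrated stress response, was at 242.5 CPM in PLDLS 1 and 535 in PLDLS 2, at 273 and 468 in PLASS 1 and 2, and at 221 and 494 in EV 1 and 2. Each replicate 2 library was above each replicate 1 library, and the constructs overlapped. Its log2 difference between replicates was 1.03 ± 0.12 (edgeR adjusted p = 0.0026), and it passed in all 13 alternative settings (adjusted p 4.24e-12 to 0.00794). With the block, it was 0.12 ± 0.14 in PLDLS vs EV, 0.12 ± 0.14 in PLASS vs EV and 0.01 ± 0.14 in PLDLS vs PLASS (adjusted p = 0.756, 1 and 0.999). DDIT3, which encodes the pro-apoptotic factor CHOP, stayed at 4.27 to 6.98 CPM, with a log2 difference between replicates of 0.14 ± 0.19 (adjusted p = 0.609). With the block DDIT3 differed by -0.46 ± 0.24 in PLDLS vs PLASS (adjusted p = 0.554), -0.23 ± 0.24 in PLDLS vs EV (adjusted p = 0.73) and 0.24 ± 0.22 in PLASS vs EV (adjusted p = 1). It overlaps MARS1, which was at 183 to 232 CPM.

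XBP1 was at 160 CPM in PLDLS 1 and 295 in PLDLS 2, at 157 and 269.5 in PLASS 1 and 2, and at 172 and 192.5 in EV 1 and 2. The 3 replicate 2 libraries were above the 3 replicate 1 libraries, and the gap was smallest in EV. The log2 difference between replicates was 0.61 ± 0.15 (edgeR adjusted p = 0.027). That call was lost without PLDLS 1, PLDLS 2, PLASS 1 or PLASS 2 (adjusted p 0.0871 to 0.123). With the block the constructs differed by 0.25 ± 0.18 in PLDLS vs EV, 0.16 ± 0.18 in PLASS vs EV and 0.08 ± 0.18 in PLDLS vs PLASS (adjusted p = 0.579, 1 and 0.955). ATF6 ranged from 113 to 146 CPM, with a log2 difference between replicates of 0.15 ± 0.11 (adjusted p = 0.347). With the block ATF6 differed by -0.17 ± 0.14 in PLDLS vs EV, -0.01 ± 0.14 in PLASS vs EV and -0.16 ± 0.14 in PLDLS vs PLASS (adjusted p = 0.634, 1 and 0.806).

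Splicing of XBP1 mRNA by IRE1 removes a stretch of 26 bases and shifts the reading frame, which yields the active factor. The deposited tables held 2 XBP1 transcripts, of 1820 and 1794 bases, which differ by those 26 bases. The stretch is printed here because it is what separates them, with capitals for the bases that are absent from the spliced form and lower case for 20 bases on each side. It lies in the coding part of exon 4 of XBP1-201 on the minus strand (GRCh38, chr22:28796122-28796147), and bases repeated at its ends allow 7 equivalent placements, of which the one annotated by GENCODE is shown.
XBP1: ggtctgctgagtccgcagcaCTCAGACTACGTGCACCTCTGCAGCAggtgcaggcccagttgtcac
The spliced transcript made up 0.632% of XBP1 TPM in PLDLS 1 and 0% in PLDLS 2, 1.51% and 2.13% in PLASS 1 and 2, and 0.241% and 3.32% in EV 1 and 2. The EV libraries enclosed both PLASS libraries and PLDLS 1, and the shares had no common order between replicates. These shares are Salmon estimates and carry no counting interval, since only reads over this stretch can tell the forms apart. The 0% in PLDLS 2, the shallowest library, is therefore an assignment and not a measured absence.

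Neither sensor gene passed in any comparison. EIF2AK3 was at 42.5 and 32.7 CPM in PLDLS 1 and 2, at 41.8 and 42.0 in PLASS 1 and 2, and at 44.2 and 33.3 in EV 1 and 2. ERN1 was at 19.7 and 20.2 CPM in PLDLS, 17.3 and 21.2 in PLASS, and 17.7 and 20.5 in EV. The log2 differences between replicates were -0.26 ± 0.13 for EIF2AK3 (edgeR adjusted p = 0.191) and 0.19 ± 0.14 for ERN1 (adjusted p = 0.342). With the block EIF2AK3 differed by -0.04 ± 0.16 in PLDLS vs EV, 0.13 ± 0.16 in PLASS vs EV and -0.17 ± 0.16 in PLDLS vs PLASS (adjusted p = 0.947, 1 and 0.854). The values for ERN1 in the same order were 0.08 ± 0.17, 0.01 ± 0.16 and 0.07 ± 0.17 (adjusted p = 0.883, 1 and 0.959).

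Tested over all groups, the 4 tested feedback and growth-inhibitor genes passed as higher in replicate 2. Of these, 3 were higher in each of the 3 groups, while SESN2 was not higher in EV. With the block, 2 of them, DDIT4 and PPP1R15A, were also higher in PLDLS than in EV. DDIT4 (GRCh38 chr10:72273924-72276036), which encodes the mTORC1 inhibitor REDD1, was at 163.5 CPM in PLDLS 1 and 802.5 in PLDLS 2, at 107 and 580.1 in PLASS 1 and 2, and at 71.0 and 138 in EV 1 and 2. PLDLS libraries were above both EV libraries, and within each group replicate 2 was higher. The log2 difference between replicates was 1.91 ± 0.26 (edgeR adjusted p = 0.00411), and it passed in all 13 alternative settings (adjusted p 2.9e-07 to 0.00874). In PLDLS vs EV with the block it was 1.81 ± 0.31 (adjusted p = 0.0155), and the estimate was 2.57 without EV 1 and 1.15 without EV 2. The PLDLS vs EV difference was 1.20 within replicate 1 and 2.54 within replicate 2. The value of 1.81 is thus a common estimate over unlike differences. Without the block the difference was 2.21 (adjusted p = 0.637). In PLASS vs EV with the block it was 1.29 ± 0.31 (adjusted p = 0.756), and in PLDLS vs PLASS 0.53 ± 0.30 (adjusted p = 0.606).

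PPP1R15A encodes GADD34, the phosphatase subunit that reverses eIF2 phosphorylation. It was at 61.8 CPM in PLDLS 1 and 107 in PLDLS 2, at 38.8 and 115 in PLASS 1 and 2, and at 30.7 and 56.5 in EV 1 and 2. Both PLDLS libraries were above both EV libraries, and PLASS overlapped both groups. The log2 difference between replicates was 1.09 ± 0.16 (edgeR adjusted p = 0.00551, and 4.31e-08 to 0.0148 in 13 alternative settings). In PLDLS vs EV with the block it was 0.97 ± 0.19 (adjusted p = 0.0264), lost without PLDLS 1 (0.219), without EV 2 (0.0574) and without the block (0.91). In PLASS vs EV with the block it was 0.70 ± 0.19 (adjusted p = 0.908).

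SESN2, which encodes the leucine-sensing mTORC1 inhibitor sestrin 2, was at 74.95 CPM in PLDLS 1 and 195 in PLDLS 2, at 85.1 and 221 in PLASS 1 and 2, and at 78.05 and 76.2 in EV 1 and 2. The 3 replicate 1 libraries lay close together, and in replicate 2 both peptide libraries were higher while EV was not. TRIB3, which encodes a pseudokinase that restrains ATF4 and AKT, was at 27.1 CPM in PLDLS 1 and 69.2 in PLDLS 2, at 23.4 and 55.0 in PLASS 1 and 2, and at 25.5 and 27.6 in EV 1 and 2. Over all groups the log2 differences between replicates were 0.91 ± 0.25 for SESN2 (edgeR adjusted p = 0.0404) and 0.89 ± 0.23 for TRIB3 (adjusted p = 0.0314). Both calls were lost without PLDLS 1, PLDLS 2, PLASS 1 or PLASS 2 (adjusted p 0.086 to 0.129 for SESN2 and 0.0728 to 0.109 for TRIB3), and that of SESN2 with DESeq2 (0.126) and upper-quartile scaling (0.0522). Within replicate 1 SESN2 differed by -0.06 in PLDLS vs EV and 0.12 in PLASS vs EV, and within replicate 2 by 1.35 and 1.53. For TRIB3 the corresponding values were 0.08 and -0.12 within replicate 1 and 1.31 and 0.98 within replicate 2.

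Whether the replicate difference itself was unlike in the peptide libraries and the EV libraries was tested with a separate replicate term for each. The comparison was chosen after the pattern in SESN2 and TRIB3 had been seen, so it gives the size of that pattern and is not independent evidence for it. The EV difference rests on 1 library at each replicate number and is itself unreplicated, so the spread comes from the peptide libraries and EV was assumed to vary like them. Of the 33 members 3 passed, all with a larger rise in the peptide libraries, where 0.813% of all tested genes passed. The excess on the log2 scale was 1.41 ± 0.17 for SESN2 (edgeR adjusted p = 0.0169), 1.41 ± 0.18 for DDIT4 (adjusted p = 0.0181) and 1.18 ± 0.20 for TRIB3 (adjusted p = 0.0378). DESeq2 called DDIT4 and SESN2 and gave no adjusted p for TRIB3, while limma-voom called these 3 and also XBP1 (0.66 ± 0.16, adjusted p = 0.0166) and PHGDH (0.58 ± 0.17, adjusted p = 0.0475). For ATF4 the estimate was -0.20 ± 0.20, which did not pass (edgeR adjusted p = 0.688). The fit had 1 residual degree of freedom, and since the EV vector differed between the replicate numbers, vector and replicate number cannot be told apart in the EV arm.

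**Figure D3:**
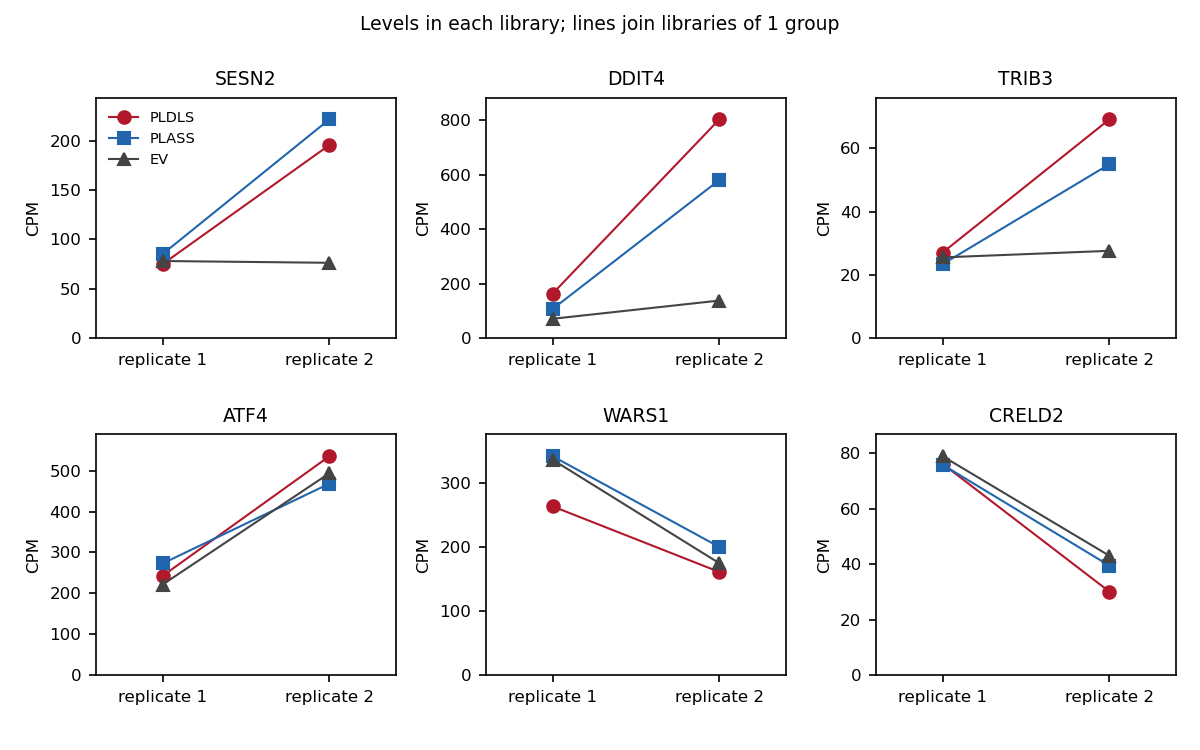
CPM of 6 members in each library, with lines joining the libraries of 1 group and colours for PLDLS, PLASS and EV. SESN2 and TRIB3 differ between replicates in both peptide groups and hardly in EV, whereas ATF4 is higher and WARS1 and CRELD2 are lower in replicate 2 in each of the 3 groups.

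The amino acid transporter genes were higher in replicate 2 in all 3 groups for all 4 members, and 3 of the 4 passed. SLC7A11, the cystine and glutamate exchanger xCT, was at 59.5 CPM in PLDLS 1 and 119 in PLDLS 2, at 41.8 and 166 in PLASS 1 and 2, and at 24.4 and 45.1 in EV 1 and 2. Both PLDLS libraries were above both EV libraries. The log2 difference between replicates was 1.30 ± 0.20 (edgeR adjusted p = 0.00663, and 6.38e-09 to 0.00771 in 13 alternative settings). With the block it was 1.34 ± 0.24 in PLDLS vs EV (adjusted p = 0.0194) and 1.36 ± 0.24 in PLASS vs EV (adjusted p = 0.279), with -0.02 ± 0.24 in PLDLS vs PLASS (adjusted p = 0.997). The call in PLDLS vs EV was lost without PLDLS 1 (0.137) and without the block (0.765). A test against EV that passed for PLDLS and missed for PLASS does not show that the peptides differ.

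SLC7A5, the large neutral amino acid transporter LAT1, was at 796 CPM in PLDLS 1 and 1193 in PLDLS 2, at 609 and 1180.0 in PLASS 1 and 2, and at 521 and 601 in EV 1 and 2. All 4 peptide libraries were above both EV libraries. In PLDLS vs EV with the block the log2 difference was 0.79 ± 0.18 (edgeR adjusted p = 0.0496). This call was lost without the block (0.643), with DESeq2 size factors (0.0532), upper-quartile scaling (0.0586) or a filter of 1 CPM in 4 libraries (0.0541), and without PLDLS 1 (0.212), PLDLS 2 (0.179) or EV 2 (0.144). The log2 difference between replicates was 0.58 ± 0.15 (adjusted p = 0.0326), lost without PLDLS 1, PLDLS 2, PLASS 1 or PLASS 2 (0.0706 to 0.192). A pseudogene copy, SLC7A5P2, was at 14.0 to 29 CPM and may take or give reads.

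SLC7A1, the cationic amino acid transporter CAT1, was at 362.5 and 621 CPM in PLDLS 1 and 2, 321 and 794 in PLASS 1 and 2, and 301 and 473 in EV 1 and 2, with a log2 difference between replicates of 0.91 ± 0.14 (edgeR adjusted p = 0.00668). It passed in all 13 alternative settings (adjusted p 5.51e-08 to 0.0254). SLC3A2, the heavy chain shared by xCT and LAT1, was at 138 and 188 CPM in PLDLS, 132 and 176 in PLASS and 115 and 120.1 in EV. It did not pass between replicates (0.31 ± 0.11, adjusted p = 0.0884), nor with the block in PLDLS vs EV (0.45 ± 0.14, adjusted p = 0.132) or PLASS vs EV (0.37 ± 0.14, adjusted p = 1). All 4 peptide libraries were above both EV libraries, as for SLC7A5, but the share of all tested genes with this order was not counted.

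Among the enzymes of amino acid synthesis and one-carbon metabolism, 1 of 4 tested members passed. MTHFD2 was at 347 CPM in PLDLS 1 and 557 in PLDLS 2, at 322 and 626 in PLASS 1 and 2, and at 227 and 513 in EV 1 and 2. Each replicate 2 library was above each replicate 1 library, and the log2 difference was 0.94 ± 0.12 (edgeR adjusted p = 0.00372, and 1.01e-09 to 0.00861 in 13 alternative settings). ASNS, asparagine synthetase and a much-used ATF4 target, had the opposite sign, with 97.6 and 73.1 CPM in PLDLS 1 and 2, 105 and 99.4 in PLASS, and 94.6 and 70.2 in EV, and did not pass (-0.31 ± 0.11, adjusted p = 0.0866). The serine synthesis gene PHGDH (-0.15 ± 0.14, adjusted p = 0.457) and the mitochondrial serine hydroxymethyltransferase gene SHMT2 (0.06 ± 0.11, adjusted p = 0.694) did not pass either.

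Both tRNA synthetase members were lower in replicate 2 in all 3 groups. WARS1, the tryptophanyl-tRNA synthetase, was at 264 CPM in PLDLS 1 and 161 in PLDLS 2, at 342 and 200.2 in PLASS 1 and 2, and at 337 and 175 in EV 1 and 2. The log2 difference was -0.81 ± 0.11 (edgeR adjusted p = 0.00349, and 6.83e-08 to 0.0127 in 13 alternative settings). AARS1, the alanyl-tRNA synthetase, was at 252 and 202 CPM in PLDLS, 304 and 241 in PLASS, and 285 and 172 in EV, with -0.46 ± 0.12 (adjusted p = 0.0326). Its call was lost without PLDLS 1, PLDLS 2, PLASS 1, PLASS 2 or EV 2 (0.0501 to 0.0975).

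Of the 9 ER chaperone and folding genes, the largest role, 7 fell in replicate 2, none rose, and 8 were lower in all 3 groups. The role's median log2 difference was -0.57, and group by group the medians were -0.82 in PLDLS, -0.45 in PLASS and -0.41 in EV. CRELD2, an ER-resident folding factor gene (GRCh38 chr22:49918634-49927537), was at 76.1 CPM in PLDLS 1 and 30.1 in PLDLS 2, at 75.8 and 39.4 in PLASS 1 and 2, and at 78.8 and 43.0 in EV 1 and 2. Each replicate 2 library was below each replicate 1 library, and PLDLS 2 was the lowest. The log2 difference was -1.04 ± 0.13 (edgeR adjusted p = 0.00327, and 3.35e-08 to 0.00889 in 13 alternative settings).

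HYOU1, a large HSP70-like chaperone gene of the ER, was at 562 CPM in PLDLS 1 and 272 in PLDLS 2, at 587 and 409 in PLASS 1 and 2, and at 601 and 383 in EV 1 and 2. It fell by 0.74 ± 0.13 on the log2 scale (edgeR adjusted p = 0.00974, and 1.67e-05 to 0.0416 in 13 alternative settings). HSP90B1, which encodes GRP94, was at 1690.0 and 762.5 CPM in PLDLS, 1629 and 1192 in PLASS, and 1500.0 and 1209 in EV, and PLDLS 2 was the lowest library. Its difference of -0.63 ± 0.17 (adjusted p = 0.0358) was lost without PLDLS 1 (0.152) or PLDLS 2 (0.157). HSPA5, which encodes BiP, the ER chaperone that binds the sensors, was at 1513 and 917 CPM in PLDLS, 1520.0 and 1385 in PLASS, and 1459 and 1099 in EV. Its replicate groups did not overlap, but its difference of -0.42 ± 0.14 did not pass (adjusted p = 0.0641). With the block HSPA5 differed by -0.10 ± 0.17 in PLDLS vs EV, 0.20 ± 0.17 in PLASS vs EV and -0.30 ± 0.17 in PLDLS vs PLASS (adjusted p = 0.851, 1 and 0.6).

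The other chaperone calls were smaller. PDIA4, a disulfide isomerase gene, fell by 0.57 ± 0.12 (edgeR adjusted p = 0.0156), MANF, a secreted ER stress factor gene, by 0.57 ± 0.14 (0.0302), SDF2L1, a BiP cofactor gene, by 0.53 ± 0.14 (0.032), and DNAJC3, which encodes the co-chaperone p58IPK, by 0.40 ± 0.11 (0.0359). In each of these 4 genes all replicate 2 libraries were below all replicate 1 libraries. The share of all tested genes with such a separation was not counted, here or for the other members. It is therefore not read as a trait of these genes. Each of these 4 calls was lost without PLDLS 1, PLDLS 2, PLASS 1 or PLASS 2, with adjusted p 0.0592 to 0.0744 for PDIA4, 0.125 to 0.13 for MANF, 0.107 to 0.129 for SDF2L1 and 0.137 to 0.181 for DNAJC3. DNAJB9, which encodes the BiP co-chaperone ERdj4, differed by 0.29 ± 0.17 (adjusted p = 0.232), and was at 10.9 to 19.3 CPM.

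**Figure D4:**
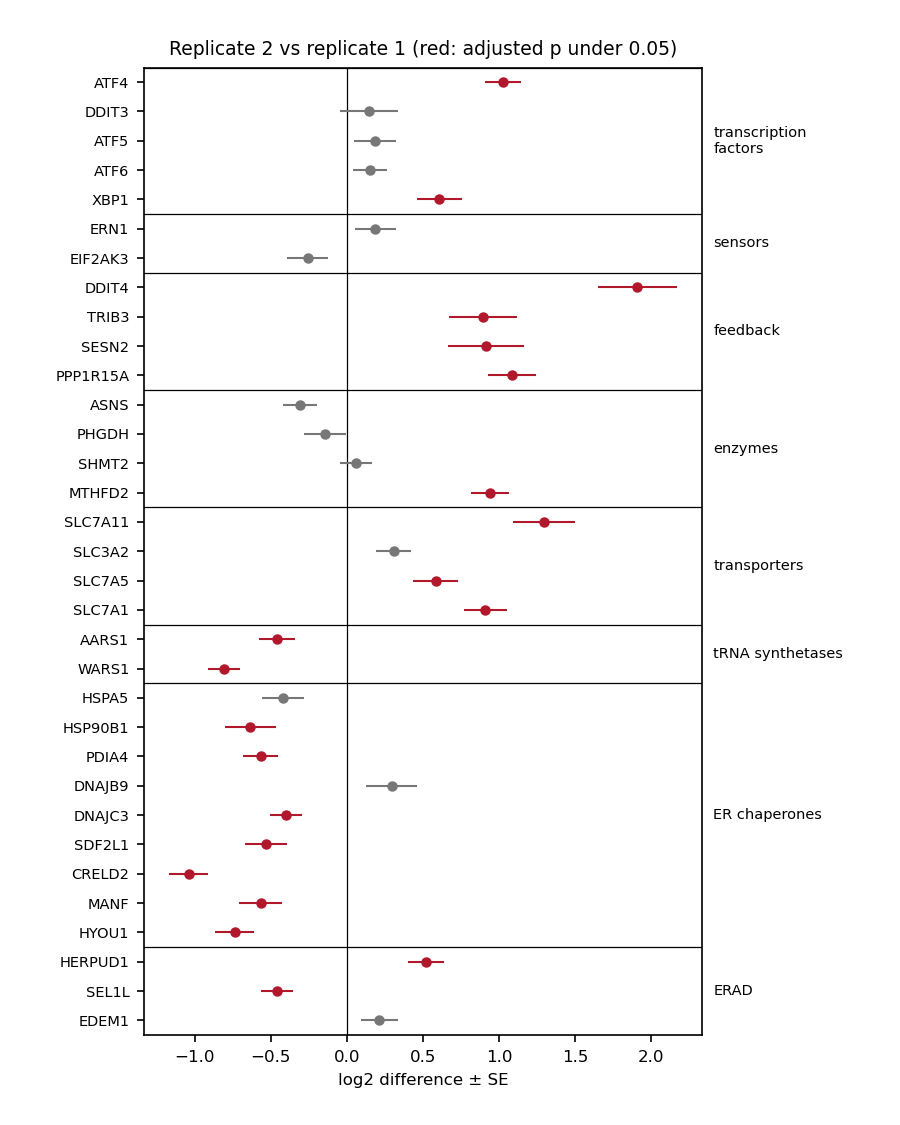
Log2 difference ± SE between replicate 2 and replicate 1 over all groups for the 33 tested members by role, with genes past an adjusted p of 0.05 in red. The 4 feedback genes lie between 0.89 and 1.91, and 7 of the 9 chaperone genes are red and below 0, down to -1.04 for CRELD2.

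The promoters of several of these genes hold short elements known from the pathway, and they are shown beside the replicate differences of the genes that carry them. The members were chosen as genes of these pathways. A larger share of matches in members than in all genes, here and for the ATF4 element below, is therefore not a finding of these data. Promoter sequences, 250 bases before to 50 bases after a start, came from RefSeq (GRCh38.p14) for 33 of the 36 members, in 45 entries. The ER stress response element is CCAAT and CCACG separated by 9 bases, to which ATF6 binds with the factor NF-Y. On either strand it was found in XBP1, HSPA5, HSP90B1 (at 2 places) and CRELD2, which is 12.1% of the members with an entry, and in 0.0916% of all 27305 genes with one. Its second form, ATTGG and CCACG separated by 1 base, was found in HERPUD1, SDF2L1 and HYOU1 (at 2 places), and in 0.0696% of all genes. In the lines below capitals mark the match, and sequences run 5′ to 3′ on the gene's strand, so that a match to the opposite strand reads as the reverse complement.
HSPA5, minus strand, chr9:125241351-125241449: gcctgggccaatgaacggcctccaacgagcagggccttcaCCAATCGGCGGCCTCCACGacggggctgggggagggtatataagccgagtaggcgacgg
HSP90B1, plus strand, chr12:103930176-103930274: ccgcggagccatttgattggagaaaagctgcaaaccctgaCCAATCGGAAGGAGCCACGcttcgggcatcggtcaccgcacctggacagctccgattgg
CRELD2, plus strand, chr22:49918514-49918612: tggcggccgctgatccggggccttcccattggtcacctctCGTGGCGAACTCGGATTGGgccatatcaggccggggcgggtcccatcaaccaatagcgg
XBP1, minus strand, chr22:28800570-28800661: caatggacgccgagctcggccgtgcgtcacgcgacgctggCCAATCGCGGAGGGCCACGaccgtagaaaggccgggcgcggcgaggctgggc
SDF2L1, plus strand, chr22:21642074-21642164: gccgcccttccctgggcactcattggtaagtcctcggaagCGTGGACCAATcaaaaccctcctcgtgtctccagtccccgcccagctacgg
HYOU1, minus strand, chr11:119057234-119057324: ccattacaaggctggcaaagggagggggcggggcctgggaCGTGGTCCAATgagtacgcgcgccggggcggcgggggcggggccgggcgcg
HERPUD1, plus strand, chr16:56931985-56932075: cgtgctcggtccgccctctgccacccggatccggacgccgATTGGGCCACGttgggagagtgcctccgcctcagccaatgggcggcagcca
Of these 7 genes, HSP90B1, CRELD2, SDF2L1 and HYOU1 fell in replicate 2, HSPA5 did not pass, and XBP1 and HERPUD1 rose. Whether these elements had a part in the replicate differences was not tested. A further element of XBP1 and ATF6, TGACGTGG, was found in HYOU1, where it overlaps the other copy of the second form, and in 0.927% of all genes.

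The ATF4 element TGATGNAA was found, on either strand, in ASNS, CHAC1, SLC3A2, SLC7A1, AARS1 and HERPUD1, which is 18.2% of the members with an entry, and in 4.46% of all genes with one. In SLC3A2 and SLC7A1 the match lies after the start. Of these 6 genes, SLC7A1 and HERPUD1 rose in replicate 2, AARS1 fell, ASNS and SLC3A2 did not pass and CHAC1 was not tested. A part of this element in the replicate differences was not tested either. The element is shown for ASNS and AARS1, where it lies before the start.
ASNS, minus strand, chr7:97872429-97872516: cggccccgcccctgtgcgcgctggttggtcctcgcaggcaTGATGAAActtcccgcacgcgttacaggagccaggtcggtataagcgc
AARS1, minus strand, chr16:70289646-70289733: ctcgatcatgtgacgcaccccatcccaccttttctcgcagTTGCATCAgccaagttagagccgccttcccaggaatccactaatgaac
No match means only that these letters are not in this window.

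The ERAD members split. HERPUD1, an ER membrane scaffold gene of ERAD, was at 41.5 CPM in PLDLS 1 and 58.8 in PLDLS 2, at 38.4 and 61.3 in PLASS 1 and 2, and at 30.7 and 39.9 in EV 1 and 2, and rose by 0.52 ± 0.12 between replicates (log2, edgeR adjusted p = 0.0242). SEL1L, the adaptor of the ERAD ubiquitin ligase, was at 294 and 195 CPM in PLDLS, 316 and 239 in PLASS, and 312 and 238 in EV, and fell by 0.46 ± 0.10 (adjusted p = 0.0225). Without PLDLS 1, PLDLS 2, PLASS 1 or PLASS 2 both calls were lost, with adjusted p 0.0642 to 0.19 for HERPUD1 and 0.106 to 0.116 for SEL1L. EDEM1, a mannosidase-like gene that hands glycoproteins to ERAD, differed by 0.21 ± 0.12 (adjusted p = 0.234). With the block, PLDLS vs EV gave 0.50 ± 0.15 for HERPUD1 (adjusted p = 0.117) and 0.37 ± 0.15 for EDEM1 (adjusted p = 0.262), and neither passed.

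Other genes of both pathways, from lists that do not overlap with the 36 genes, also included calls in both directions between replicates. These lists were chosen with earlier results of these data known, so their counts are not independent evidence. The shares over all tested genes, 7.83% higher and 9.6% lower, apply to these counts too, and those of the eIF2 list, of the further chaperone genes and of the further ERAD genes lie near them. For these lists leaving out single libraries was not run. Of 25 tested further genes of the amino acid response, 8 were higher in replicate 2 and 1 was lower, with a median log2 difference of 0.23. ATF3, a stress-induced transcription factor gene, was at 9.17 CPM in PLDLS 1 and 39.7 in PLDLS 2, at 5.1 and 45.3 in PLASS 1 and 2, and at 5.42 and 11.4 in EV 1 and 2, a difference of 2.10 ± 0.33 (edgeR adjusted p = 0.00675). CEBPG, a partner of ATF4, rose by 0.60 ± 0.10 (0.00898) and the glutamine transporter gene SLC38A2 by 0.77 ± 0.14 (0.0109), while KLHL24 fell by 0.83 ± 0.15 (0.0106). Of 17 further cytosolic tRNA synthetase genes, 4 were higher and 0 lower, the opposite sign to WARS1 and AARS1, led by TARS1 with 0.54 ± 0.11 (0.0147). Of 16 genes of eIF2, its kinases, its exchange factor and its phosphatase, 1 passed, the eIF2 beta subunit gene EIF2S2, which was higher with 0.50 ± 0.11 (0.021). Of 27 further ER chaperone and folding genes, 4 were lower and 0 higher, PDIA3, CALR, PDIA6 and CANX, at -0.56 ± 0.12, -0.57 ± 0.13, -0.56 ± 0.13 and -0.42 ± 0.12 (adjusted p = 0.0172, 0.0227, 0.0246 and 0.0456). Of 38 further ERAD, translocation and trafficking genes, 3 were higher and 5 lower, among the latter SEC24D (-0.65 ± 0.10, 0.00665), EDEM3 (-0.64 ± 0.10, 0.00772), DERL3 (-1.01 ± 0.17, 0.0085) and KDELR3 (-1.25 ± 0.35, 0.0423). KDELR3 was near the floor, at 0.5525 to 2.02 CPM, where 3 reads correspond to 0.538 CPM in PLDLS 2 before scaling.

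In the construct comparisons these lists gave few calls. With the block, PLDLS vs EV gave 3 of 25 amino acid response genes and 1 of 38 ERAD, translocation and trafficking genes, and 0 of the other 3 lists, which had 1 gene each at an unadjusted p under 0.05, where 4.22% of all tested genes passed. Without the block none of the 5 lists had a call, and the adjusted p was 0.645 for CARS1, 0.501 for JDP2, 0.359 for ALDH18A1 and 0.291 for EDEM2. CARS1, the cysteinyl-tRNA synthetase, was higher at 96.2 and 123 CPM in PLDLS against 61.4 and 81.8 in EV (0.62 ± 0.12, edgeR adjusted p = 0.0272), and JDP2, an AP-1 factor gene, at 24.6 and 62.0 against 15.3 and 18.2 (1.20 ± 0.25, 0.0308). ALDH18A1, a proline synthesis enzyme gene, was lower at 106 and 105 CPM against 147 and 168 (-0.57 ± 0.13, 0.0391), and EDEM2 was higher at 35.5 and 42.1 against 24.0 and 19.5 (0.82 ± 0.18, 0.0406). In PLDLS vs PLASS and PLASS vs EV none of the 5 lists had a gene past the threshold in edgeR, with or without the block. With the block, 2, 0, 1, 1 and 2 genes of the lists, in the order above, were at an unadjusted p under 0.05 in PLDLS vs PLASS, and 7, 1, 0, 0 and 1 in PLASS vs EV. Of all 14635 tested genes, 1686 were under it in PLDLS vs PLASS, 488 in PLASS vs EV and 2327 in PLDLS vs EV.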

How the data were processed

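Poly-A RNA of 6 MUTZ3 libraries was quantified with Salmon 0.3.1 after bcl2fastq 1.8.4, with the build hg38, per the submitters' processing notes. For the read layout and annotation release nothing was given in the sources used here. The deposited estimated counts are reads per RefSeq transcript, not normalized, per the file headers and labels. The deposited TPM values, per length and per library, were rescaled over transcripts of at least 200 bases. The deposited effective length, in bases, served only as an offset in an alternative. Of 69004 transcripts 99.4% were named from RefSeq (GRCh38.p14) and GENCODE tables, giving 27745 genes, and 0.067% to 0.0891% of reads had no gene name and were left out.

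Gene sums of estimated counts were rounded and tested with edgeR 4.0.16 (R 4.3.3), with TMM scaling, filterByExpr, a quasi-likelihood test over all 6 libraries and Benjamini-Hochberg adjustment over 14635 genes at 0.05. Standard errors are the log2 difference over the root of F. Constructs were compared without the replicate number (3 residual degrees of freedom) and with it as a block (2). Replicate differences correlated across 9322 genes at 0.707 (PLDLS and PLASS), 0.536 (PLDLS and EV) and 0.597 (PLASS and EV). An experiment number in the names of the deposited tables matches the replicate number, yet no label names a shared day, so pairing was read from these correlations alone. Replicates differed beyond sampling noise (chi-square per gene 18.3 to 77.2). Differences within a replicate number are of log2(CPM + 0.5). DESeq2 1.42.0, limma-voom 3.58.1, other scalings, filters, the length offset and leaving out each library were alternatives. The edgeR tests of PLDLS vs PLASS, with and without the block, and of replicate 2 vs replicate 1 were first run on simulated data with known changes. The simulated PLDLS vs PLASS data gave every group the same replicate effect, whereas the replicate differences here correlated at 0.536 to 0.707. How these tests perform with unlike replicate effects was therefore not checked. The EV comparisons, the DESeq2 and limma-voom fits and the test of unlike replicate differences were not simulated.

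The members and lists were chosen with earlier results of these data known. All 36 members could be named, with up to 4 genes of smallest p for each further list and comparison. Python 3.11.15, pandas 2.3.3 and matplotlib 3.10.9 were used.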

Additional observations from a re-analysis of the deposited data

Results flagged for a closer look

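For 3 members the difference between replicate 2 and replicate 1 was larger in the 4 peptide libraries than in the 2 EV libraries (edgeR interaction term). The comparison was chosen after the pattern had been seen, and the EV difference rests on 1 library at each replicate number, so it is a description that needs further EV libraries. The excess on the log2 scale was 1.414 for SESN2, 1.409 for DDIT4 and 1.178 for TRIB3. SESN2 and TRIB3 were near their replicate 1 levels in EV 2, and DDIT4 was 0.95 higher in EV 2 than in EV 1. EV 1 and EV 2 carried different vectors, so vector and replicate number cannot be told apart there.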

How the results depend on the processing

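Over all settings tried, 0 results reversed. In PLDLS vs PLASS the count of called members was 0 without and 1 with the replicate block. In PLDLS vs EV it was 0, and 5 with the block, 1 with DESeq2 and 5 with no filter. In PLASS vs EV it was 0 with or without the block, 2 with no filter, and with the block 1 with DESeq2 and 2 with no filter. Leaving out each library in turn, with the block, gave 0 to 2 members in PLDLS vs PLASS, 2 to 11 in PLDLS vs EV and 0 to 8 in PLASS vs EV, and 9 to 23 between replicates. A group left with 1 library took its spread from the other groups. Between replicates it added nothing to the difference, so leaving out either library of a group was nearly the same check. For most fits with a library left out, the share of all tested genes that passed is not given. The counts from those fits therefore do not show a change particular to the members. The count between replicates was 21 or 22 with the 7 other settings. The replicate difference of the peptide libraries against EV could not be fitted with a library left out, and gave 3 members with edgeR, 2 with DESeq2 and 5 with limma-voom. The cause of these changes was not tested. With 2 libraries a group and 1 to 3 residual degrees of freedom, small differences cannot be shown, and PLDLS 2, with 5582078 reads, limits the low-count members most.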
